A study of Homo sapiens with 6 samples.

Results

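Glycosphingolipid and ganglioside synthesis was followed here through 10 genes, taken as the rows of the deposited count table whose symbol was that of a member, out of 56478 rows with a gene symbol. The members are UGCG, B4GALT5, B4GALT6, ST3GAL5, B4GALNT1, ST8SIA1, A4GALT, UGT8, GALC and GLA. All 10 had a row, 9 passed the filter on low counts, and GLA was listed at 0 in every library. The cells were BT20, an established cell line from a human breast tumour of the triple negative class, which carries basal markers, kept in medium with fetal bovine serum and given no further treatment. The knockdown libraries (shCK5-22, n = 3) carried a pLK0 vector with a hairpin against cytokeratin 5, the product of KRT5 and an intermediate filament protein of basal epithelium, and the control libraries (shControl, n = 3) carried the same kind of vector with a control hairpin. Each arm is 1 hairpin in 1 cell line. Whether replicates came from separate cultures is not labelled, and p-values therefore cover only a spread among libraries that may be technical. The comparison asks how transcript levels differ after knockdown of KRT5.

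Glycosphingolipids are membrane lipids built by adding sugars to ceramide. Glucosylation of ceramide and then addition of galactose give lactosylceramide, the branch point from which sialylation opens the ganglioside series (GM3, then GM2 or GD3) and addition of another galactose opens the globo series (Gb3). A separate branch adds galactose directly to ceramide, and lysosomal hydrolases take the products apart. In breast cancer, the gangliosides GD2 and GD3 and their synthases are known from work on stem-like cells, and the balance of gangliosides and globo-series lipids is known to shift with epithelial or mesenchymal state.

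Libraries held between 47622067 and 65429616 counts. KRT5, the targeted gene, stood at 21.1, 22.7 and 24.1 CPM (counts scaled to the normalized size of a library) in shCK5-22 replicates 1, 2 and 3, and at 231, 247 and 244 CPM in shControl replicates 1, 2 and 3, so the libraries matched their labels. Epithelial markers (EPCAM, CDH1, KRT8 and KRT18) summed to between 6098 and 6506 CPM in shCK5-22 and between 6116 and 6377 CPM in shControl, with CDH1 (E-cadherin) lower in shCK5-22, at 429 CPM against 553 CPM in shControl (log2 fold change -0.37, edgeR adjusted p = 1.48e-09). Basal markers (KRT5, KRT14, KRT17 and EGFR) summed to between 1455 and 1529 CPM in shCK5-22 and between 1953 and 1999 CPM in shControl, and besides KRT5 each of the others was lower in shCK5-22, by log2 fold changes of -1.15, -0.62 and -0.18. Of the receptor markers, ESR1 was at 11.5 CPM in shCK5-22 and 14.5 CPM in shControl and ERBB2 at 83.8 CPM in shCK5-22 and 120 CPM in shControl, both lower in shCK5-22 (edgeR adjusted p = 0.0014 and 2.40e-10). PGR had 16 counts in all 6 libraries together. Among markers of other cell types, 4 leukocyte genes summed to at most 1 CPM in shCK5-22 and 1.23 CPM in shControl, with CD3E at 2 counts in all. Of these markers, 3 endothelial genes summed to 18.9 to 30.7 CPM in shCK5-22 and 23.1 to 31 CPM in shControl, mostly CDH5, while PECAM1 was lower in shCK5-22. The 7 fibroblast and mural genes summed to 29.4 to 30.8 CPM in shCK5-22 and 33 to 34.1 CPM in shControl, mostly COL1A1, which was lower in shCK5-22 (log2 fold change -0.25). PDGFRA was at 0, while PDGFRB, at 1.08 CPM in shCK5-22 and 0.0518 CPM in shControl, and LUM, at 0.373 CPM in shCK5-22 and 0.101 CPM in shControl, were higher in shCK5-22. The part of these genes in the results on members was not tested. The library of shCK5-22 replicate 1 stood apart from the other 2 of its group: the chi-square of a pair, divided by its degrees of freedom, was 33.7 and 19.8 for its pairs, 5.08 for the pair without it, and 3.47 to 4.88 between shControl libraries. The log2 fold changes of the members that rose are therefore also given without that library. Without it the members that did not pass the test were at 0.04 for B4GALT5, 0.17 for B4GALT6, 0.12 for B4GALNT1, -0.12 for ST8SIA1, -0.17 for A4GALT and -0.12 for GALC, again without passing it.

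Of the 9 members tested, 3 were higher in shCK5-22 and 0 were lower (edgeR quasi-likelihood test, adjusted p under 0.05 over 18008 genes), which is 33.3% against a background of 34.2% of all genes tested. In that background 17.4% were called higher and 16.8% lower. The median log2 fold change was 0.06 over the members tested and -0.01 over all genes tested. The genes that rose were ST3GAL5 (GM3 synthase), UGCG (glucosylceramide synthase) and UGT8 (galactosylceramide synthase), and ST3GAL5 was the 1 member that rose at least 2-fold. A rise of at least 2-fold together with an edgeR adjusted p under 0.05 was found in 1.62% of genes tested. CPM values of the groups did not overlap for 6 of the 9 members (66.7%, against 45.1% of all genes tested), 4 of them higher and 2 lower in shCK5-22.

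The 250 bases before a RefSeq start (GRCh38.p14) are printed for the 3 genes that rose and for A4GALT, which competes with ST3GAL5 for lactosylceramide, so that their promoters can be read beside the values. Each is given 5′ to 3′ on the strand of its gene, for the first of its starts in the RefSeq table, and capitals mark GC boxes (GGGCGG on either strand), the motif read by Sp1-family factors.
ST3GAL5, chr2:85888991-85889240, minus strand: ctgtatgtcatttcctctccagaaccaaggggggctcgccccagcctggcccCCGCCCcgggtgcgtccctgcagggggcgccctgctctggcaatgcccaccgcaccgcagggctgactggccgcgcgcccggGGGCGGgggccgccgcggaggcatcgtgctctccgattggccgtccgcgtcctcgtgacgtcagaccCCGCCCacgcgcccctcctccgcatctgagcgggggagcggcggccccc
UGCG, chr9:111896564-111896813, plus strand: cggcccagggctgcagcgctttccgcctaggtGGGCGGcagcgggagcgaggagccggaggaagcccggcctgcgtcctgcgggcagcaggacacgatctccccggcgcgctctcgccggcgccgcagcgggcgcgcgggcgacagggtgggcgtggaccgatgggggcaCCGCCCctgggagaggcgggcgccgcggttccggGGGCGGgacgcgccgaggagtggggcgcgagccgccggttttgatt
UGT8, chr4:114598152-114598401, plus strand: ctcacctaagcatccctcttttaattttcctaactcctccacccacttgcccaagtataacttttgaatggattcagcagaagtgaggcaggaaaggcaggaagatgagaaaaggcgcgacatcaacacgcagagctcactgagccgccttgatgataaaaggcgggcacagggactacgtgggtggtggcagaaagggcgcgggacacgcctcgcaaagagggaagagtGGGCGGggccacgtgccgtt
A4GALT, chr22:42720871-42721120, minus strand: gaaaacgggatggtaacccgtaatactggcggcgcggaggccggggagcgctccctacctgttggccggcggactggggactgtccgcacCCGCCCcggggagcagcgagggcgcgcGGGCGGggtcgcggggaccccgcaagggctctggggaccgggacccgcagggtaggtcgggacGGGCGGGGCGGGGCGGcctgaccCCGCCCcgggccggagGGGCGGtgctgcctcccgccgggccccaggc
The windows held 3 GC boxes before ST3GAL5, 3 before UGCG, 1 before UGT8 and 7 before A4GALT, some of which overlap one another. A GC box is found in 42.3% of the 27305 first windows of this length. None of these 4 windows held CACCTG on either strand, the E-box read by ZEB and SNAIL repressors, which occurs in 17.5% of windows, or the TATA box TATAAA, which occurs in 11.1%. ST3GAL5 has 5 starts in the table, of which 3 had a GC box and 1 had the E-box. The printed windows of ST3GAL5 and A4GALT lie inside their loci given below, not before the outer ends of those loci. The window of UGCG runs past the start of its locus, and that of UGT8 ends before its locus. UGT8 has 3 starts and A4GALT has 2, all with a GC box and none with the E-box. Which start these cells use was not tested. The windows of ST3GAL5, UGCG and A4GALT were rich in G and C, at 76%, 78.4% and 79.2%, against a median of 58% over all first windows. The window of UGT8 was below that median, at 54.8%.

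UGCG (chromosome 9, 111896766 to 111935369, plus strand, GRCh38) encodes the enzyme that adds glucose to ceramide, the entry step of nearly all glycosphingolipids. Its level was 181, 176 and 172 CPM in shCK5-22 replicates 1, 2 and 3, against 126, 132 and 133 CPM in shControl replicates 1, 2 and 3. Every knockdown library lay above every control library. The mean was 176 ± 4.11 CPM in shCK5-22 and 130 ± 3.61 CPM in shControl (SD, n = 3 each), a 1.35-fold higher level (log2 fold change 0.44, SE 0.0321, edgeR adjusted p = 7.47e-10). These values rest on at least 6059 counts per library, and without shCK5-22 replicate 1 the log2 fold change was 0.42 (edgeR adjusted p = 1.79e-11).

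B4GALT5 and B4GALT6 encode the pair of lactosylceramide synthases, which add galactose to glucosylceramide. B4GALT5 (chromosome 20, 49632945 to 49713878, minus strand) was abundant and nearly equal between groups, at 183, 180 and 182 CPM in shCK5-22 replicates 1, 2 and 3, and 173, 173 and 180 CPM in shControl replicates 1, 2 and 3. The ranges met at 180 CPM and the gene did not pass the test (log2 fold change 0.05, 95% interval -0.01 to 0.11, edgeR adjusted p = 0.236). B4GALT6 (chromosome 18, 31622247 to 31685836, minus strand) was measured at 6.73, 6.44 and 6.53 CPM in shCK5-22 replicates 1, 2 and 3, and 6.39, 5.21 and 5.76 CPM in shControl replicates 1, 2 and 3. All knockdown values lay above all control values, by a narrow margin from shControl replicate 1, and the difference did not pass the test (log2 fold change 0.19, 95% interval -0.03 to 0.40, edgeR adjusted p = 0.175). For every 100 B4GALT5 reads there were 3.62 ± 0.0629 B4GALT6 reads in shCK5-22 and 3.3 ± 0.348 in shControl (SD, n = 3 each), and the groups overlapped.

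ST3GAL5 (chromosome 2, 85837120 to 85905199, minus strand) encodes the sialyltransferase that converts lactosylceramide to GM3, the first ganglioside and the precursor of the more complex ones. Counts were 350, 280 and 294 in shCK5-22 replicates 1, 2 and 3, against 86, 96 and 96 in shControl replicates 1, 2 and 3. In CPM these are 5.37, 4.68 and 5.56 in shCK5-22 and 1.79, 1.47 and 1.52 in shControl. The lowest knockdown library was well above the highest control library. The mean rose to 5.2 ± 0.462 CPM in shCK5-22, against 1.59 ± 0.171 CPM in shControl (SD, n = 3 each), a 3.28-fold higher level (log2 fold change 1.71, SE 0.141, 95% interval 1.42 to 2.01, edgeR adjusted p = 4.45e-09). Without shCK5-22 replicate 1 it was 1.69 (edgeR adjusted p = 1.32e-09). An RNA on the opposite strand inside the gene, ST3GAL5-AS1, is in the table, and the use of strand in counting is not known. No exon base of ST3GAL5 lies inside the span of ST3GAL5-AS1 in GENCODE release 29. Of the 68080 bases of the ST3GAL5 span, 66379 are not shared with other genes. Whether reads from the shared part were counted was not tested. In bulk RNA, more cells that express a gene and more RNA per cell cannot be told apart.

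**Figure D1:**
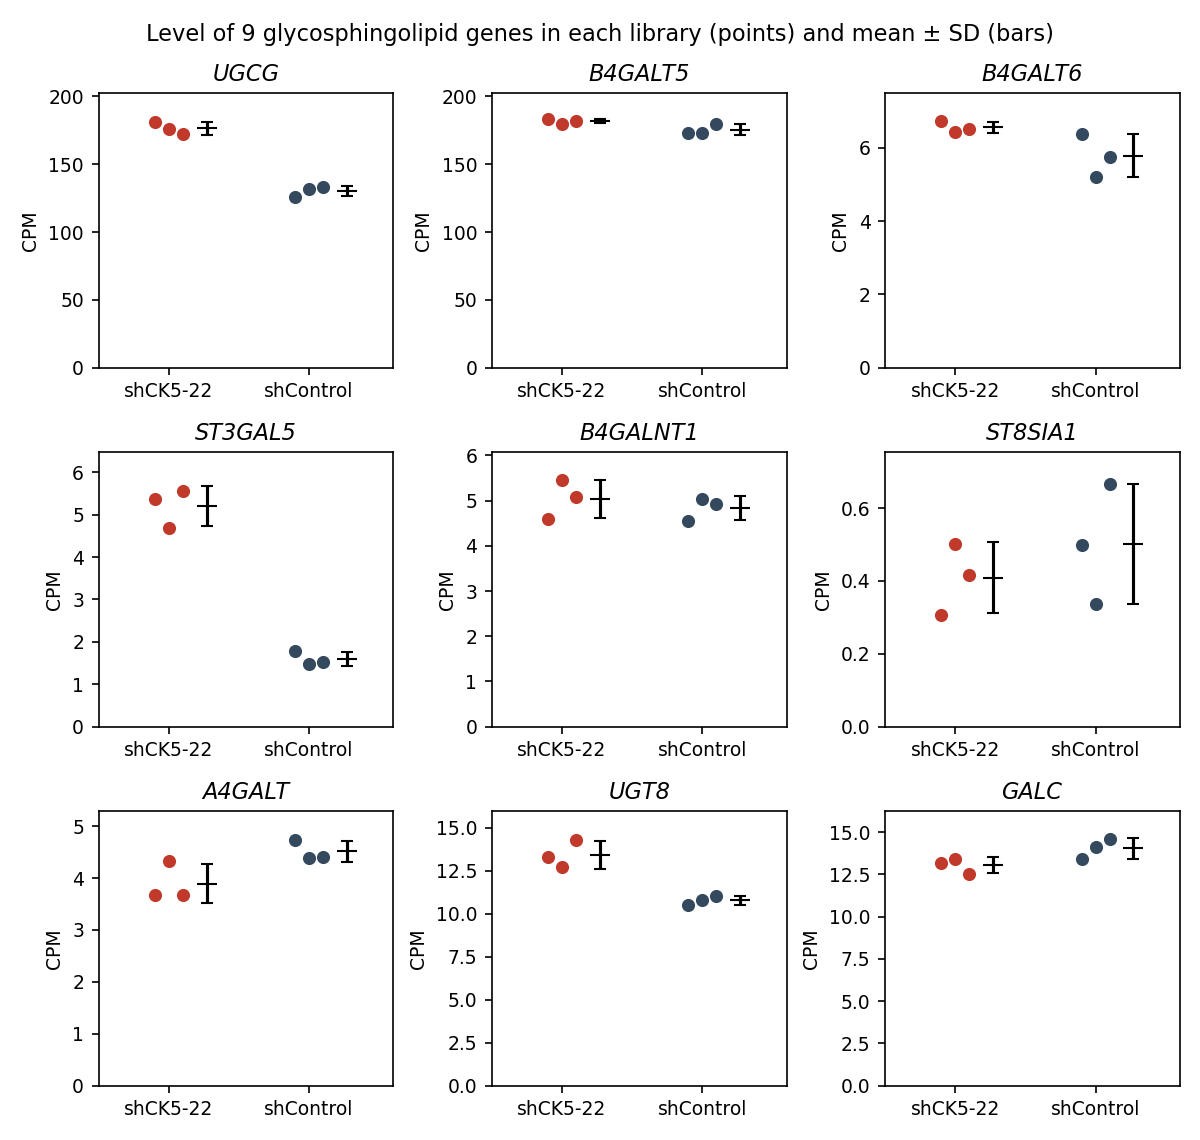
Level in CPM (y axis, from 0) of the 9 members with counts, in shCK5-22 libraries on the left and shControl libraries on the right of each panel; points are libraries and bars are mean ± SD of 3. ST3GAL5 stands at 4.68 to 5.56 CPM in shCK5-22 and 1.47 to 1.79 CPM in shControl, while B4GALNT1 and ST8SIA1 overlap between groups.

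The synthases that act on GM3 did not pass the test. B4GALNT1 (chromosome 12, 57623410 to 57633355, minus strand), which adds N-acetylgalactosamine to make GM2 and GD2, was at 4.6, 5.45 and 5.07 CPM in shCK5-22 replicates 1, 2 and 3, and 4.54, 5.04 and 4.93 CPM in shControl replicates 1, 2 and 3. The groups overlapped and the log2 fold change was 0.06 (95% interval -0.18 to 0.29, edgeR adjusted p = 0.756). In the annotation 34.3% of its exon bases lie inside the span of SLC26A10 on the opposite strand, and whether its count lacks reads from there was not tested. ST8SIA1 (chromosome 12, 22063773 to 22437041, minus strand), the GD3 synthase, had the fewest reads of the members listed above 0, with 20, 30 and 22 counts in shCK5-22 replicates 1, 2 and 3, and 24, 22 and 42 in shControl replicates 1, 2 and 3. These are 0.408 ± 0.0979 CPM in shCK5-22 and 0.501 ± 0.164 CPM in shControl (SD, n = 3 each), with overlapping groups. The log2 fold change was -0.30 with a 95% interval of -1.05 to 0.46 (edgeR adjusted p = 0.584), a wide interval at these low counts. The interval of neither gene reaches the change of ST3GAL5. Every count of ST8SIA1, and also of ST3GAL5, A4GALT and GALC, was an even number. Whether the mates of a read pair were counted separately was not tested.

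A4GALT (chromosome 22, 42692112 to 42721298, minus strand) encodes the galactosyltransferase that makes Gb3 from lactosylceramide, the start of the globo series. Its level was 3.68, 4.32 and 3.67 CPM in shCK5-22 replicates 1, 2 and 3, against 4.74, 4.39 and 4.41 CPM in shControl replicates 1, 2 and 3. The groups did not overlap, but shCK5-22 replicate 2 was close to the control libraries. The difference did not pass the test (log2 fold change -0.21, 95% interval -0.46 to 0.04, edgeR adjusted p = 0.192).

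Ratios of counts within a library, which need no scaling, were compared for 4 pairs of enzymes that either share a substrate or catalyse the same step. For every 100 ST3GAL5 reads there were 68.6, 92.1 and 66 A4GALT reads in shCK5-22 replicates 1, 2 and 3, against 265, 298 and 290 in shControl replicates 1, 2 and 3. ST3GAL5 thus had more reads than A4GALT in each knockdown library and fewer in each control library. The log2 ratio of A4GALT to ST3GAL5 was -0.42 in shCK5-22 and 1.50 in shControl, a difference of -1.92 (exact two-sided permutation test, p = 0.1, the smallest that 3 against 3 libraries allow; 0.4 adjusted over the 4 ratios). It was -1.86 without shCK5-22 replicate 1. The difference restates the log2 fold changes of the pair, 1.71 for ST3GAL5 and -0.21 for A4GALT, of which the latter did not pass the test. The ratios of UGT8 to UGCG, ST8SIA1 to B4GALNT1 and B4GALT6 to B4GALT5 differed by -0.12, -0.32 and 0.14, and in each of these the groups overlapped (exact permutation p = 0.2, 0.4 and 0.3, each 0.4 adjusted over the 4 ratios). Since counts depend on transcript length, these ratios describe a shift between groups and not the relative abundance of the enzymes.

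**Figure D2:**
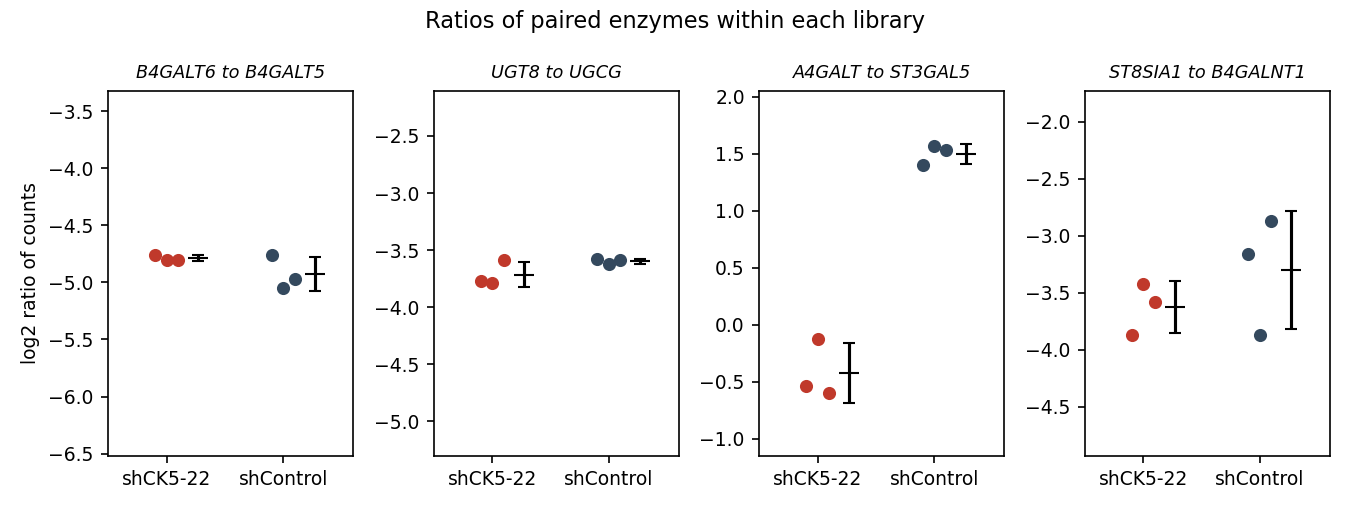
Log2 ratio of the counts of paired enzymes within each library (y axis; every panel spans the same width), with shCK5-22 on the left and shControl on the right; points are libraries and bars are mean ± SD of 3. A4GALT to ST3GAL5 differs by -1.92 between groups, and the other 3 ratios overlap.

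UGT8 (chromosome 4, 114598455 to 114678224, plus strand) encodes the enzyme that adds galactose to ceramide, which leads to galactosylceramide and sulfatide, lipids best known from myelin. It was at 13.3, 12.7 and 14.3 CPM in shCK5-22 replicates 1, 2 and 3, against 10.5, 10.8 and 11 CPM in shControl replicates 1, 2 and 3. All knockdown libraries were above all control libraries. The mean was 13.4 ± 0.774 CPM in shCK5-22 and 10.8 ± 0.222 CPM in shControl (SD, n = 3 each), 1.25-fold higher (log2 fold change 0.32, SE 0.0736, edgeR adjusted p = 0.00182; 0.33 with adjusted p = 0.00223 without shCK5-22 replicate 1). Of the genes that modify its product, GAL3ST1, the sulfatide-forming sulfotransferase, had 32 counts over all 6 libraries and was not tested, and FA2H, a fatty acid 2-hydroxylase, stood at 6.1 CPM in shCK5-22 and 5.98 CPM in shControl without passing the test (edgeR adjusted p = 0.841).

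The members that break glycosphingolipids down were GALC, the lysosomal galactosylceramidase, and GLA, the lysosomal alpha-galactosidase that takes the outer galactose from Gb3. GALC (chromosome 14, 87837820 to 87993665, minus strand) was at 13.2, 13.4 and 12.5 CPM in shCK5-22 replicates 1, 2 and 3, against 13.4, 14.1 and 14.6 CPM in shControl replicates 1, 2 and 3. The groups touched at 13.4 CPM, with the knockdown values just below, and the gene did not pass the test (log2 fold change -0.11, 95% interval -0.25 to 0.04, edgeR adjusted p = 0.254). GLA (chromosome X, 101397803 to 101408012, minus strand) lies wholly inside the span of the read-through gene RPL36A-HNRNPH2 on the opposite strand. RPL36A, a ribosomal protein gene that cells in general express, was also listed at 0 in all libraries. Of 477 protein-coding genes whose exon bases all lie inside the span of other genes of the table, with none in those genes' exons, 97.9% were listed at 0 in all 6 libraries. Among 12324 with no exon base inside another gene the share was 14%. The listing of GLA at 0 is therefore not read as a measurement of its transcript, and no level or fold is given for it.

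**Figure D3:**
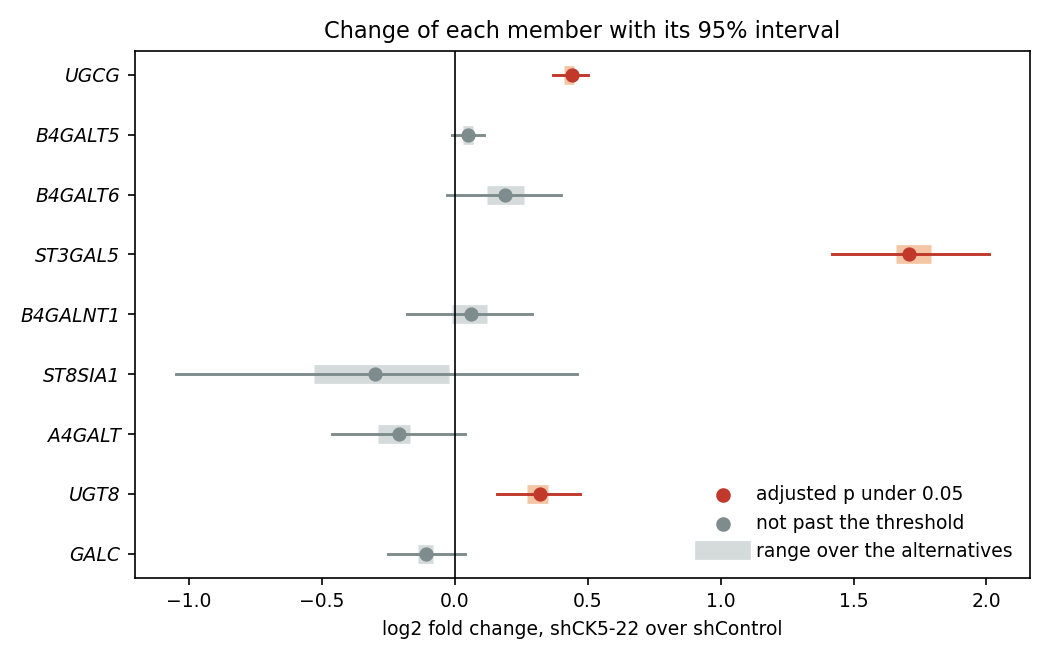
Log2 fold change of shCK5-22 over shControl (x axis) for the 9 members tested, in pathway order; points are the estimates, lines their 95% intervals and bands the range over the alternative analyses. ST3GAL5 at 1.71, UGCG at 0.44 and UGT8 at 0.32 lie above 0 with their intervals, and the other 6 intervals include 0.

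Levels of different members were compared only per length. Per kilobase of merged exons, B4GALT5 and UGCG led in shCK5-22 at 38.5 ± 0.321 and 38.2 ± 0.89 CPM per kb, and their ranges overlapped, whereas in shControl they stood apart at 37.2 ± 0.864 and 28.2 ± 0.782 CPM per kb (SD, n = 3 each). UGT8 followed at 2.86 in shCK5-22 and 2.29 in shControl, then GALC at 1.91 in shCK5-22 and 2.06 in shControl. B4GALT6 at 1.24 and A4GALT at 1.14 CPM per kb overlapped in shCK5-22, and in shControl A4GALT at 1.32 was above B4GALT6 at 1.09. B4GALNT1 at 0.63 in shCK5-22 and 0.604 in shControl, ST3GAL5 at 0.319 in shCK5-22 and 0.0977 in shControl, and ST8SIA1 at 0.0282 in shCK5-22 and 0.0346 in shControl closed the order. ST3GAL5 thus kept the eighth place of 9 in both groups on this scale. Which length fits the counts is not known, and whether reads from introns were counted was not tested. Per kilobase of gene span not shared with other genes, UGCG led at 4.58 in shCK5-22 and 3.38 in shControl, B4GALT5 came next at 2.24 in shCK5-22 and 2.17 in shControl, and B4GALNT1 moved up to the third place. On that scale the range of ST3GAL5 in shCK5-22 overlapped that of GALC, at 0.0784 and 0.0836 CPM per kb, while in shControl they were 0.024 and 0.0901 CPM per kb. ST8SIA1 was lowest on both scales. In counts the members split the same way, with 2 above 100 CPM and 7 under 20 CPM.

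**Figure D4:**
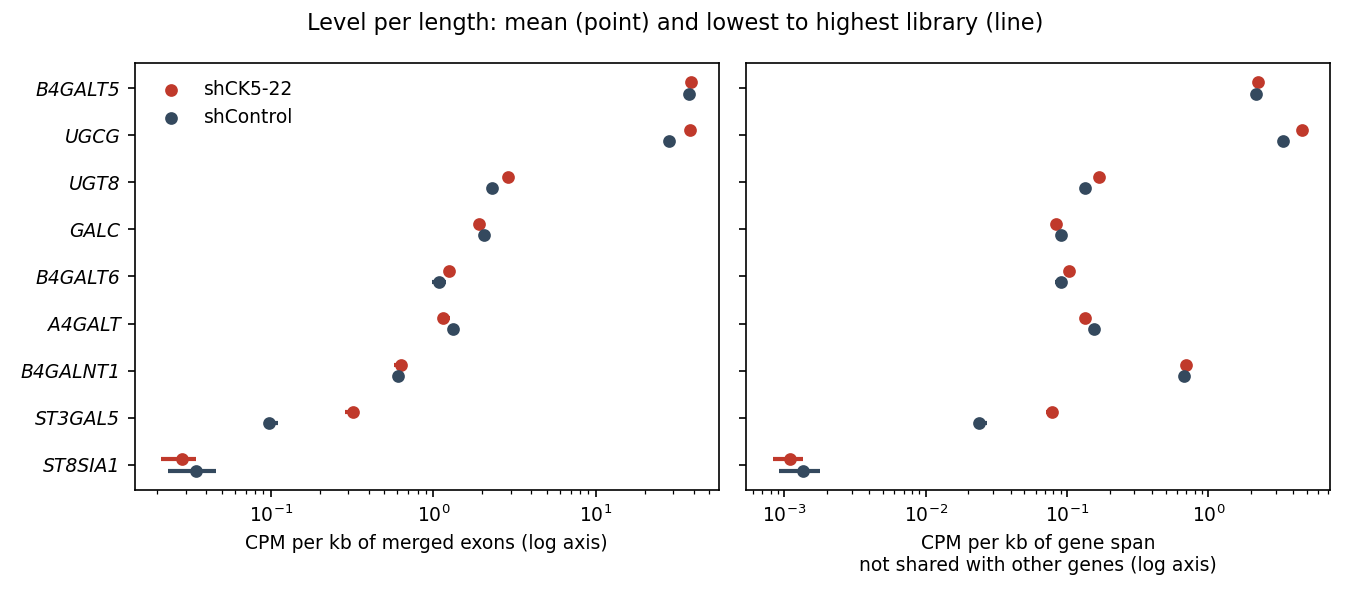
Level per kilobase (x axes, log scale) of the 9 members in shCK5-22 and shControl, per kb of merged exons on the left and per kb of gene span not shared with other genes on the right; points are means and lines run from the lowest to the highest library. B4GALT5 and UGCG lie far above the rest and ST8SIA1 lowest on both scales.

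Genes that extend the ganglioside series moved both ways: 3 of 9 tested were higher and 2 lower in shCK5-22 (55.6%, against 34.2% of all genes tested; median log2 fold change 0.03). B3GALT4, which makes GM1 from GM2, fell to 4.49 ± 0.847 CPM in shCK5-22, against 6.85 ± 0.782 CPM in shControl (SD, n = 3 each; log2 fold change -0.62, edgeR adjusted p = 0.00101). ST3GAL1, a sialyltransferase that acts on O-glycans and in part on gangliosides, fell by 0.30 log2 units to 177 CPM in shCK5-22, against 217 CPM in shControl. ST3GAL2, which sialylates GM1 to GD1a, rose by 0.39 log2 units to 6.04 CPM in shCK5-22, against 4.61 CPM in shControl (edgeR adjusted p = 0.0117). That call was lost without shControl replicate 1 (edgeR adjusted p = 0.0546) or shControl replicate 2 (0.0717), and its range over the alternatives was 0.00445 to 0.0717. Without shControl replicate 2, 1 gene of this list was higher and 2 lower. ST6GALNAC5, a sialyltransferase of the alpha series known from breast cancer spread to the brain, rose by 0.22 log2 units to 33.9 CPM in shCK5-22, against 29 CPM in shControl.

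Among genes of the globo, lacto and neolacto series, 3 of 13 tested were higher and 4 lower (53.8%, against 34.2% of all genes tested; median -0.04). B3GALNT1, which turns Gb3 into globoside, rose by 0.59 log2 units to 2.99 ± 0.296 CPM in shCK5-22, against 2.0 ± 0.301 CPM in shControl (SD, n = 3 each; edgeR adjusted p = 0.00612). ST3GAL3, a sialyltransferase of lacto-type chains, rose by 0.50 log2 units to 16.2 CPM in shCK5-22, against 11.5 CPM in shControl, and GCNT2, the I-branching enzyme, by 0.38 log2 units. FUT3, the Lewis fucosyltransferase, fell by 0.46 log2 units to 44.4 CPM in shCK5-22, against 61 CPM in shControl. Of its 50-base windows, 16.2% are also found in other genes, chiefly FUT5. ST3GAL4 was lower too, at 57.2 CPM in shCK5-22 against 73.8 CPM in shControl (log2 fold change -0.37). B4GALT4 and B4GALT1 were also called lower in shCK5-22, with log2 fold changes of -0.26 and -0.15. The first enzyme of the lacto series, B3GNT5, was listed at 0 in all libraries, with all of its exon bases inside the span of another gene, and is not described.

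Of the breakdown genes besides the members, 6 of 17 tested were higher and 5 lower (64.7%, against 34.2% of all genes tested; median 0.02). ASAH1, the acid ceramidase, fell to 29.6 ± 0.483 CPM in shCK5-22, against 50.4 ± 1.19 CPM in shControl (SD, n = 3 each), or 1.7-fold less (log2 fold change -0.77, edgeR adjusted p = 2.26e-11). SMPD1, the acid sphingomyelinase, fell by 0.47 log2 units to 22.7 CPM in shCK5-22, against 31.4 CPM in shControl. NEU1, the lysosomal sialidase, rose by 0.26 log2 units to 117 CPM in shCK5-22, against 98.1 CPM in shControl. PSAP, the precursor of the saposins that present these lipids to hydrolases, rose by 0.14 log2 units. HEXA, a subunit gene of the hexosaminidase that degrades GM2, was listed at 0 in all libraries, with 2.89% of its exon bases inside the span of another gene. That listing is not read as a measurement either, and its cause was not tested.

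Ceramide supply genes passed the test in 5 of 14 cases, 3 higher and 2 lower (median 0.08), a share of 35.7% that is near the 34.2% of all genes tested. CERS4, a ceramide synthase, fell to 1.77 ± 0.284 CPM in shCK5-22, against 4.15 ± 0.193 CPM in shControl (SD, n = 3 each; log2 fold change -1.24, edgeR adjusted p = 1.19e-06). ORMDL1, a regulator of the first step of sphingolipid synthesis, fell by 0.45 log2 units, and SGMS1, a sphingomyelin synthase that competes with UGCG for ceramide, rose by 0.32 log2 units to 50 CPM in shCK5-22, against 39.9 CPM in shControl. Of the transfer proteins and enzyme partners, 2 of 6 tested were higher and 1 lower (50%, against 34.2% of all genes tested; median -0.01). GLTP, a glycolipid transfer protein, rose by 0.27 log2 units, and LAPTM4A, a membrane protein needed for Gb3 synthesis, rose by 0.22 log2 units to 139 CPM in shCK5-22, against 119 CPM in shControl. ABCA12, a lipid transporter of keratinocytes that carries glucosylceramide, fell by 0.32 log2 units (edgeR adjusted p = 0.0453), a call lost with DESeq2 (adjusted p = 0.0897) and without shControl replicate 2 (0.244), shControl replicate 3 (0.0716), shCK5-22 replicate 2 (0.16) or shCK5-22 replicate 3 (0.063), and its adjusted p ran from 0.0351 to 0.244 among the alternatives.

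Nucleotide sugar supply genes were called in 5 of 12 cases, 2 higher and 3 lower (41.7%, against 34.2% of all genes tested; median -0.01). This count was 2 without shControl replicate 1, 2 without shControl replicate 3 and 3 without shCK5-22 replicate 2. PGM1, a phosphoglucomutase, fell by 0.29 log2 units to 64.4 CPM in shCK5-22, against 78.9 CPM in shControl. SLC35A1, the Golgi carrier of CMP-sialic acid, rose by 0.51 log2 units to 2.48 CPM in shCK5-22, against 1.74 CPM in shControl (edgeR adjusted p = 0.0212), and 47.4% of its 50-base windows occur in other genes. That call was lost without shControl replicate 1 (edgeR adjusted p = 0.062), shControl replicate 2 (0.0947), shCK5-22 replicate 1 (0.0868) or shCK5-22 replicate 2 (0.0555), and its adjusted p ran from 0.0144 to 0.0947 among the alternatives. SLC35D1, a carrier of other nucleotide sugars, fell by 0.19 log2 units (edgeR adjusted p = 0.0187), a call lost without shControl replicate 1 (0.0676), shControl replicate 3 (0.0847) or shCK5-22 replicate 2 (0.0621), and its adjusted p ran from 0.0115 to 0.0847 among the alternatives. GNE, the first enzyme of sialic acid synthesis, was listed at 0 in all libraries with its exon bases inside the span of other genes, and CMAS, which activates sialic acid, stood at 42.5 CPM in shCK5-22 and 40.8 CPM in shControl without passing the test (edgeR adjusted p = 0.339).

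**Figure D5:**
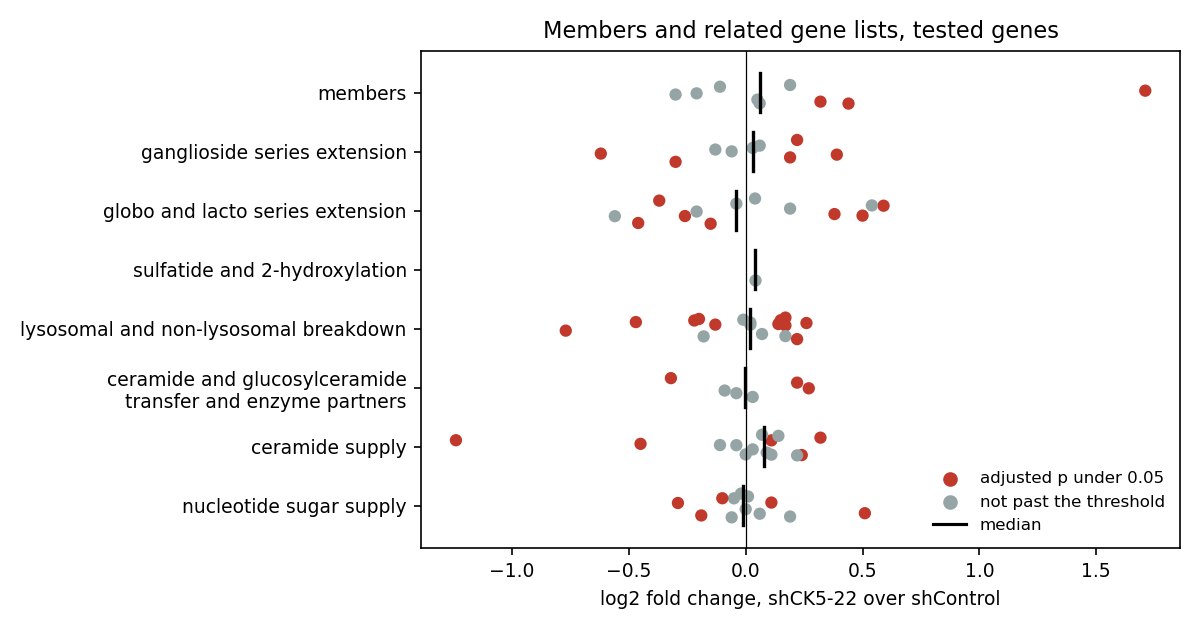
Log2 fold change of shCK5-22 over shControl (x axis) for the tested members and the tested genes of 7 related lists; each point is a gene, red where the adjusted p is under 0.05, and black bars are list medians. The medians lie between -0.04 and 0.08, and ST3GAL5 at 1.71 and CERS4 at -1.24 lie farthest to each side.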

How the data were processed

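The deposited file is 1 table of whole-number read counts, by gene symbol, for 6 libraries of total RNA. Per the submitters' processing notes, cutadapt, STAR, SAMtools and Cufflinks were used with genome build GRCh38. The authors' counting tool, annotation, strand setting and treatment of shared reads were not given in the sources used here. Of 56505 rows, 27 held a calendar date in place of a symbol and were left out (0.167% to 0.175% of a library's counts).

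Counts were compared between shCK5-22 and shControl with edgeR 4.0.16 in R 4.3.3 (quasi-likelihood test with robust estimation, TMM scaling, filterByExpr, no block), with two-sided p-values, Benjamini-Hochberg adjustment across the 18008 genes tested, and a threshold of 0.05. The script was tested on simulated data. Standard errors are the log2 fold change over the root of F. A count of 3 in a library corresponds to 0.046 to 0.0624 CPM, a floor that covers counting error only. That floor takes each count as an independent read, which was not tested. Ratios within a library had 0.5 added to each count. Alternatives used limma 3.58.1 and DESeq2 1.42.0, other scalings and filters, a threshold of 0.01, a replicate block and each library left out in turn. Group and replicate numbers come from the sample titles.

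Loci, exon lengths and shared 50-base windows come from GENCODE release 29 on GRCh38. Promoters come from RefSeq, GRCh38.p14, where 8 of the 10 members had an entry. B4GALT6 and B4GALNT1 had none. All 127 genes of the lists matched a row, 2 through an older symbol. The members and lists were chosen with earlier results of these data known. The genes named are the members, KRT5, the marker genes, and for each list the 3 genes past the threshold with the largest change at a mean of at least 1 CPM. FA2H, GAL3ST1, B3GNT5, ST6GALNAC5, GCNT2, ST3GAL4, B4GALT4, B4GALT1, PSAP, HEXA, GNE and CMAS are further examples chosen after their values were seen. Some genes are not reported here.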

Additional observations from a re-analysis of the deposited data

How the results depend on the processing

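Under all 15 alternatives to the fit across genes, 3 members passed the threshold, and ST3GAL5, UGCG and UGT8 kept their direction and their call. The log2 fold change ranged from 1.66 to 1.79 for ST3GAL5, from 0.41 to 0.45 for UGCG and from 0.27 to 0.35 for UGT8. The other 6 tested members passed under none of these alternatives, and ST8SIA1 had no value under 1 of them. B4GALNT1 turned to -0.01 without shCK5-22 replicate 2 (edgeR adjusted p = 0.979); its other libraries left out gave values up to 0.12. The number of genes changed over the whole table was 6153 and ranged from 4382 to 6743. With a threshold of 0.01 the genes called were 3 in the ganglioside extension list and 2 in the nucleotide sugar list. With libraries left out in turn they were 3 to 5 and 2 to 4 in these lists. The cause was not tested. The 4 within-library ratios kept their direction under every alternative run on them, and the ratio of A4GALT to ST3GAL5 ranged from -2.07 to -1.83.

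For same-numbered libraries of the 2 groups, the correlations of their deviations from the group means were 0.02, 0.05 and -0.01. A correlation over all genes cannot exclude a pairing that acts on part of them. No pairing is labelled. With a replicate block, 6743 genes passed, 3 members among them, against 6153 genes without the block. Depth limits ST8SIA1 most, at 20 to 42 counts per library.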
